A study of Mus musculus with 8 samples.

Results

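The actin, myosin and contractile genes examined here are 42 named genes, chosen by symbol as a list of actins, their binding proteins, non-muscle and smooth muscle myosin chains, and genes of actin turnover, with focal adhesion plaque genes left out. All 42 were found among the 23337 gene symbols of the deposited files, where the formins Diaph1, Diaph2 and Diaph3 carry their older names Diap1, Diap2 and Diap3. The cells were murine oviductal epithelial (MOE) cells, 1 line of FVB mouse background. The oviduct is the mouse counterpart of the human fallopian tube. They were harvested at confluence with trypsin and put either on 3D collagen gels (4 libraries) or on 2D collagen (4 libraries). Both groups spent 6 h there in the cells' usual medium lacking EGF, so neither group is a time-zero or plastic control. The study concerns how cancer of fallopian tube origin reaches the ovary, and the comparison asks which transcripts differ between the 2 forms of collagen. Because 1 line was used and no label says that replicates were separate cultures, the p-values reflect library-to-library spread that may be technical only.

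Actin monomers assemble into filaments that formins nucleate, profilin feeds and cofilin severs. Non-muscle myosin II pulls on these filaments once its regulatory light chain is phosphorylated, while filamins crosslink them and tropomyosins, calponins and transgelins coat or bundle them. Many of these genes are textbook targets of SRF, a transcription factor whose MRTF cofactors bind unpolymerised actin, so actin assembly and the transcription of actin genes are linked. SRF binds a short AT-rich element called the CArG box.

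Values are normalized counts, that is, reads per gene divided by 1 size factor per library. The depth was 17575457 to 21235436 reads in 3D libraries and 15692699 to 25862036 reads in 2D libraries. Keratin genes Krt8 and Krt18 and the Müllerian factor Pax8 were abundant in all 8 libraries, whereas the epithelial adhesion genes Epcam (0 to 21.0 in 3D libraries and 1.95 to 29.9 in 2D libraries) and Cdh1 (17.4 to 104 and 18.4 to 90.2) were low. The libraries numbered 4 in both groups departed from their group means together, as described below for the members, so results that rest on them are given with and without them.

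Transcripts of both filamins, of Smtn and Lmod1, of the LIM-only genes Fhl2 and Fhl3 but not Fhl1, and of a few actin-binding genes were lower on 3D collagen, and no member passed the test in the other direction. Of the 40 members that passed the filter on low counts (at least 10 normalized counts in at least 4 libraries), 10 fell on 3D collagen and 0 rose in limma at an adjusted p under 0.05, while over all 11820 genes tested 3.39% fell (401) and 2.33% rose (275). Scaling by library size turned this split over all genes to 318 that fell and 498 that rose, with 9 members falling and 0 rising. The members were chosen with earlier results of these data known, so a share above that of all genes is no test of the list. At an unadjusted p under 0.05, 13 members were lower and 2 higher (Myl12b and Myh10), and edgeR and DESeq2 also called 0 members higher. The share of all genes tested at this unadjusted threshold was not counted, so the 13 and 2 have no background beside them. The 10 were the smooth muscle structural genes Smtn and Lmod1, the filamins Flna and Flnc, the LIM-only genes Fhl2 and Fhl3, Tuft1, Cnn2, Actg1 and Tagln2. The log2 fold changes of 8 of the 10 were at or below −1, and all 10 lay between −3.0 and −0.63. In the other 30 tested members log2 fold changes ran from −2.28 to 1.06. The median over the 40 was −0.31, against 0.017 over all genes tested. Lmod1 passed the filter through its 2D libraries alone, so it had to differ, and 9 members fell besides it. Des and Myh11 were too low to test. The groups did not overlap for 11 of the 40 members, Lmod1 included, all lower on 3D collagen, against 10.4% lower and 8.05% higher among all genes tested. These are bulk libraries, in which fewer cells of a type and less RNA per cell cannot be told apart.

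The count of 10 depended on single libraries. Leaving out 3D replicate 1, 2 or 4 left 6 members lower, against 1.13%, 1.21% and 2.02% of all genes tested in those fits. Leaving out 3D replicate 3 left 5 (0.88% of all genes), and leaving out 2D replicate 3 left 6 (1.8%). With both libraries numbered 4 left out 12 members fell, against 2.34% of all genes tested, and 8 of the 10 were among them. Lmod1, which had to differ, is in each of these counts. Counted by role, and leaving out Lmod1, 3 of 3 tested filamin and smooth muscle structural genes fell (Flna, Flnc and Smtn), as did 3 of 6 LIM and mechanosensitive genes, 2 of 5 transgelins and calponins and 1 of 5 actins. None of 5 tropomyosin and caldesmon genes, 8 tested myosin genes or 7 actin turnover genes passed in either direction by limma, and at an unadjusted p under 0.05 Myl12b and Myh10 alone among them did. Neither edgeR nor DESeq2 called any of these 20.

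**Figure D1:**
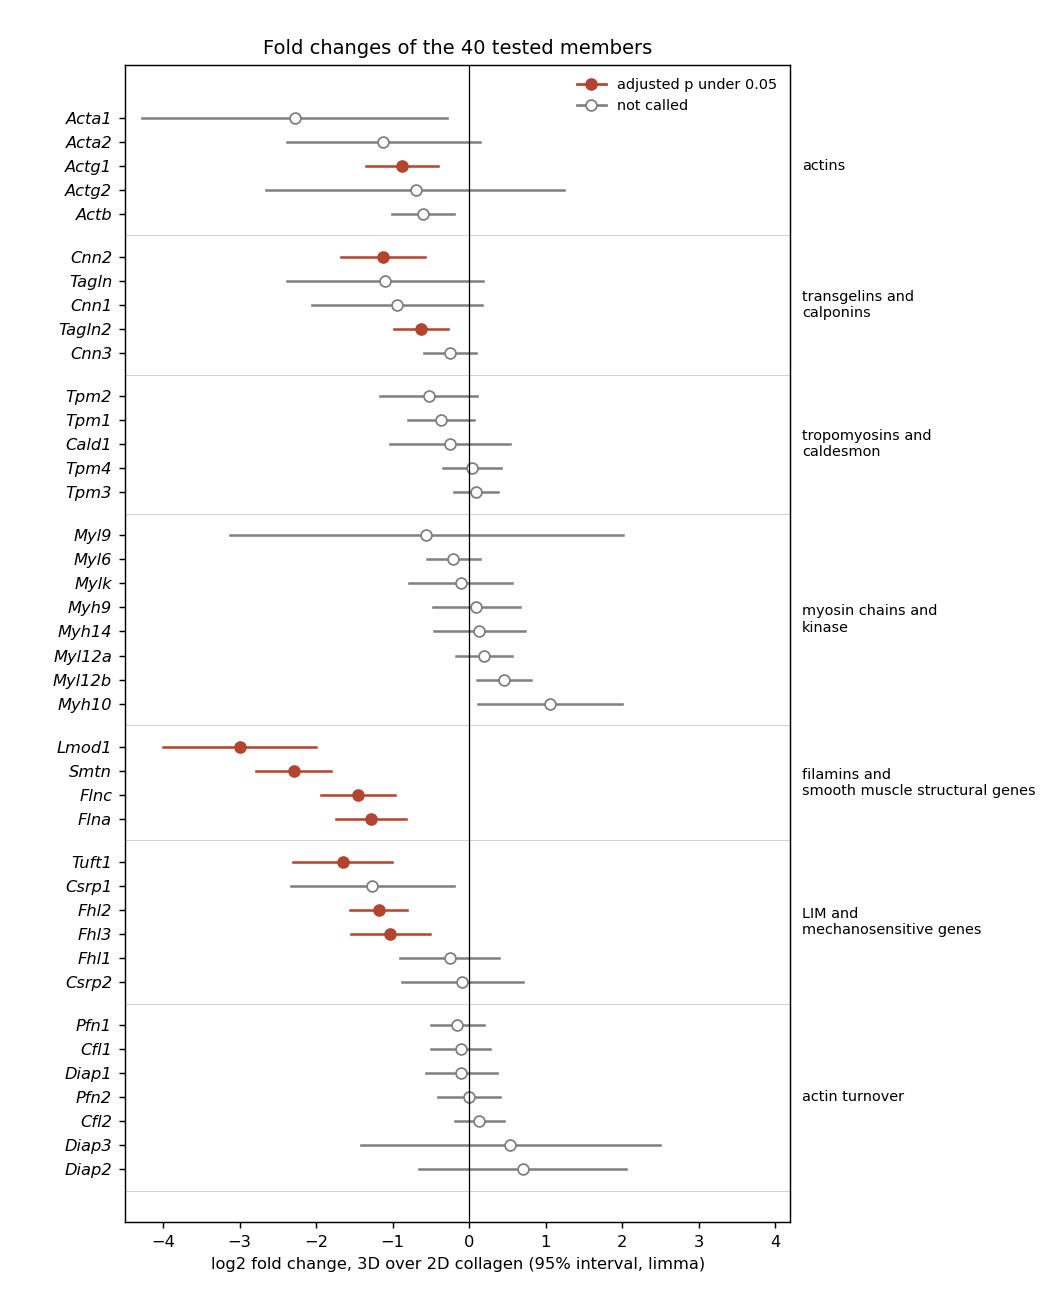
Log2 fold change of 3D over 2D collagen (horizontal axis) for the 40 tested members, grouped by role, with 95% intervals from limma. Filled points passed an adjusted p of 0.05: the 10 filled points all lie at or below −0.63, and the myosin, tropomyosin and turnover groups hold none.

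The RefSeq promoter windows (GRCm38.p6, 250 bases before to 50 after a transcript start) were searched for the CArG box. The element reads the same class of letters on both strands, so 1 search covers both. Windows were found for 35 of the 42 members. Actb, Actg2, Tagln, Myh11, Tuft1, Csrp2 and Diap1 had none. A box was present in 8 of 42 member windows (19.0%), belonging to 7 members, and in 1.63% of all 32851 windows. Among members that fell, 3 of 9 with a window had a box (Fhl2, Cnn2 and Actg1), and among the others 4 of 26 did (Acta1, Fhl1, Myl6 and Myl9). Every box found read CC, then only A or T, then GG, over 10 bases. A member without one here may hold a box outside the window or with other letters. A match describes letters and is neither a binding site nor a cause. The windows below show a box, in capitals, of those 3 members that fell and of Acta1, which did not pass the test. Fhl2 had another box, CCAAAAAAGG, 96 to 87 bases before its first listed start, which is not shown. Each is 60 bases, 5′ to 3′ on the gene's strand.
Fhl2, second listed start, chr1:43163963-43164022, minus strand, box 31 to 22 bases before the start: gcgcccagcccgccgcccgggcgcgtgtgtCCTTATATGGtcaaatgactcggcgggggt
Cnn2, chr10:79988514-79988573, plus strand, box 56 to 47 bases before the start: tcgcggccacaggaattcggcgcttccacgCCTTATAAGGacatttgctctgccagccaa
Actg1, chr11:120348556-120348615, minus strand, box 90 to 81 bases before the start: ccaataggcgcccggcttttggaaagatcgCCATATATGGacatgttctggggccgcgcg
Acta1, chr8:123894819-123894878, minus strand, box 73 to 64 bases before the start: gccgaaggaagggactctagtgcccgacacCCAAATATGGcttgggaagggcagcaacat
The 10 letters of the Fhl2 box shown, CCTTATATGG, also stand 50 to 41 bases before a start of Myl6. Fhl2 fell and Myl6 did not pass the test (adjusted p = 0.456 by limma). All 60 bases around the Myl6 box are exonic, and 0 of those around this Fhl2 box are. Around the other Fhl2 box, CCAAAAAAGG, all 60 are exonic too. Whether the box bears on either gene was not tested.

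Of the smooth muscle structural genes, Smtn fell, Lmod1 was called but had to differ once it passed the filter, and Des was not tested. Smoothelin (Smtn, chromosome 11, 3517523 to 3540612, mm10), an actin-binding protein of contractile smooth muscle, had 3427, 5497, 5539 and 6137 normalized counts in 3D replicates 1 to 4, against 21608, 31915, 22256 and 23661 in 2D replicates 1 to 4. The lowest 2D value was above 3 times the highest 3D value, and the log2 fold change was −2.29 (SE 0.22, adjusted p = 0.00144 by limma). Gene models on the opposite strand cover 16.3% of its exonic length, and the strand setting of the counting is not given in the sources used here. Leiomodin 1 (Lmod1, chromosome 1, 135324807 to 135368065), which nucleates actin filaments in smooth muscle, had 2.26, 7.86, 3.73 and 4.57 in 3D libraries and 75.0, 35.8, 42.7 and 24.5 in 2D libraries. These are few reads, at most 9 in a 3D library, and the 95% interval of its log2 fold change reached from −4.0 to −2.0 (adjusted p = 0.00762 by limma). Desmin (Des), the muscle intermediate filament protein, stayed at or below 12.5 in 3D libraries and 16.7 in 2D libraries.

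Filamins join actin filaments into networks and tie them to membrane receptors. Filamin A (Flna, chromosome X, 74223461 to 74249820) had 85989, 108578, 74115 and 67725 normalized counts in 3D libraries, against 181912, 255948, 196356 and 176943 in 2D libraries. Every 3D library was below every 2D library, by a log2 fold change of −1.28 (95% interval −1.74 to −0.82, adjusted p = 0.0115 by limma), and the call was lost without 3D replicate 3 (adjusted p = 0.0544 by limma, between 4.28e-07 and 0.0544 across the alternatives). Filamin C (Flnc, chromosome 6, 29433256 to 29461883), the muscle filamin, had 9692, 10190, 7899 and 6714 in 3D libraries and 18323, 31956, 23262 and 21425 in 2D libraries. Its log2 fold change was −1.45 (SE 0.21, adjusted p = 0.00759 by limma), and 2D replicate 2 was the highest library for both filamins and for Smtn. Per kilobase of exon, Flna averaged 8947 ± 1914 in 3D libraries and 21573 ± 3870 in 2D libraries (SD, n = 4 each), while Flnc averaged 917 ± 171 and 2525 ± 622, so Flna was the more abundant filamin on both substrates.

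**Figure D2:**
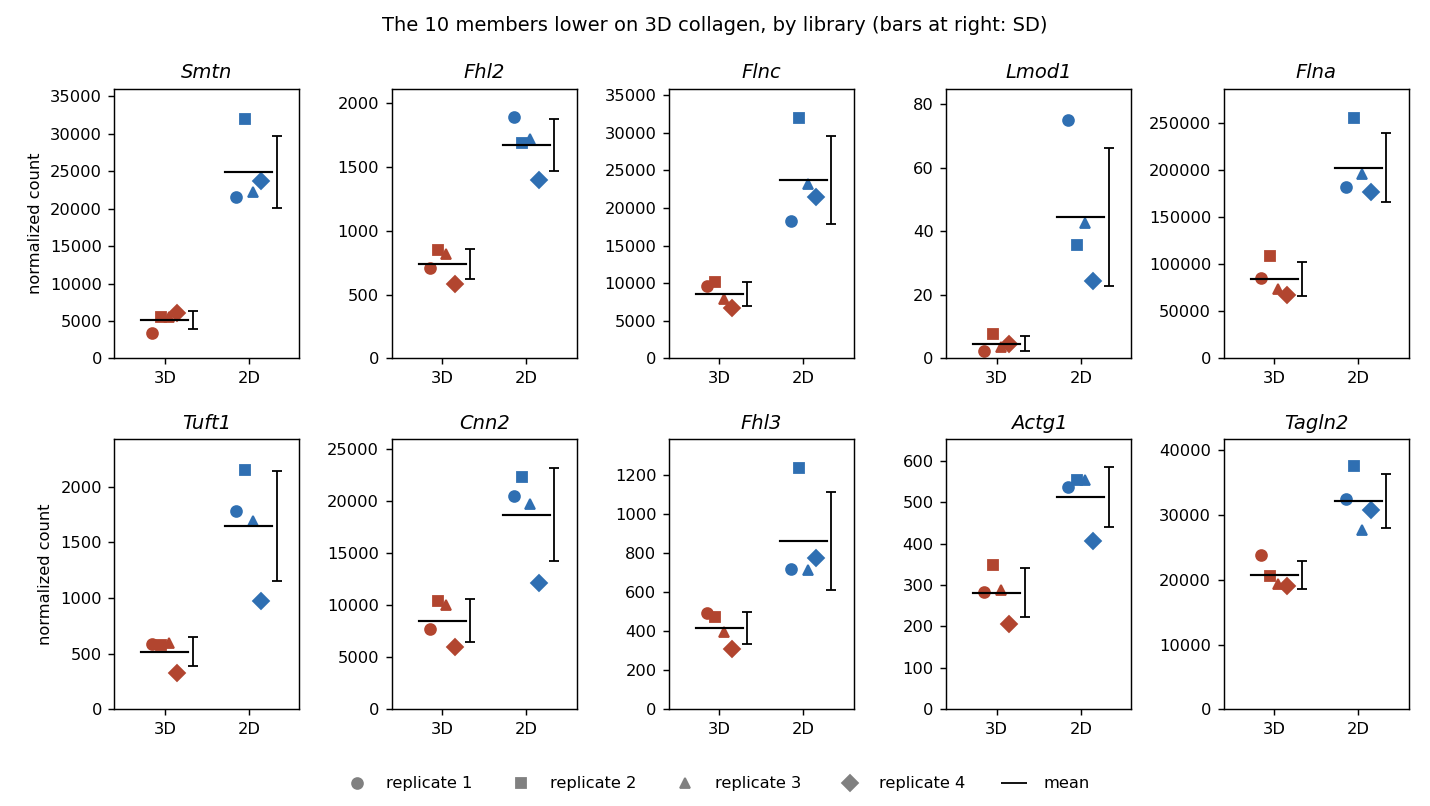
Normalized counts (vertical axes, from 0) of the 10 members that fell, in 3D libraries (left in each panel) and 2D libraries (right), with symbols for the replicate number, a line at the mean and SD bars. In each panel the highest 3D library lies below the lowest 2D library, as for Smtn with at most 6137 in 3D libraries and at least 21608 in 2D libraries. For Lmod1 this follows from how it passed the filter.

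LIM-domain genes split. Fhl2 (chromosome 1, 43123074 to 43196984), a LIM-only protein that moves between actin structures and the nucleus, had 710, 852, 817 and 587 normalized counts in 3D libraries, against 1892, 1690, 1719 and 1401 in 2D libraries. Its log2 fold change of −1.18 (SE 0.17, adjusted p = 0.00625 by limma) passed under every alternative run. Fhl3 (chromosome 4, 124700701 to 124708611), its relative first described in muscle, had 493, 472, 395 and 309 in 3D libraries and 718, 1234, 713 and 776 in 2D libraries, with 2D replicate 2 standing apart. The log2 fold change of Fhl3 was −1.03 (adjusted p = 0.0343 by limma), lost without 2D replicate 3 or 4 or any one 3D library (adjusted p 0.0553 to 0.117 by limma, between 0.00149 and 0.117 across the alternatives) and with both libraries numbered 4 left out (0.0870). Fhl1, the third relative, had 1418 to 1944 in 3D libraries and 1230 to 3347 in 2D libraries and did not pass (adjusted p = 0.634 by limma).

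Tuftelin 1 (Tuft1, chromosome 3, 94612757 to 94658872), first known from enamel, had 583, 576, 592 and 322 normalized counts in 3D libraries and 1780, 2155, 1696 and 972 in 2D libraries. Replicate 4 was the lowest on both substrates, and the log2 fold change of Tuft1 was −1.65 (SE 0.29, adjusted p = 0.0156 by limma). The actin-associated LIM proteins Csrp1 and Csrp2 did not pass. Csrp1, the most abundant of the LIM and mechanosensitive genes per kilobase, had 14322, 11711, 12464 and 4636 in 3D libraries, against 35528, 34842, 26066 and 10049 in 2D libraries. The groups overlapped through 2D replicate 4 alone, and the log2 fold change of −1.27 had a 95% interval from −2.33 to −0.20 (adjusted p = 0.144 by limma). With both libraries numbered 4 left out it was −1.32 and passed (adjusted p = 0.0124 by limma, between 0.00281 and 0.254 across the alternatives). Csrp2 ranged from 633 to 1524 in 3D libraries and from 630 to 1763 in 2D libraries.

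Calponins and transgelins bind along actin filaments, and calponin restrains the myosin ATPase. Calponin 2 (Cnn2, chromosome 10, 79988584 to 79996062), the form common outside smooth muscle, had 7701, 10361, 10025 and 5983 normalized counts in 3D libraries, against 20439, 22344, 19716 and 12167 in 2D libraries. All 3D libraries were lower, by a log2 fold change of −1.13 (SE 0.25, adjusted p = 0.0316 by limma). The call was lost without any one library other than 2D replicate 4, at adjusted p of 0.0534 to 0.0887 by limma (between 0.000521 and 0.0887 across the alternatives). The smooth muscle form Cnn1 was scarce, at 41.2 to 101 in 3D libraries and 53.9 to 249 in 2D libraries, and Cnn3 had 4043 to 4300 in 3D libraries and 3974 to 5997 in 2D libraries. Neither passed (limma adjusted p = 0.284 and 0.344), and 17.7% of the exonic length of Cnn3 is shared with a gene model on the opposite strand.

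Transgelin 2 (Tagln2, chromosome 1, 172500047 to 172507380) was the most abundant of the transgelins and calponins per kilobase. It had 23878, 20589, 19412 and 19027 normalized counts in 3D libraries and 32393, 37623, 27752 and 30731 in 2D libraries. The log2 fold change of −0.63 (SE 0.16) only just passed (adjusted p = 0.0495 by limma), and the call was lost without any one library (adjusted p 0.0634 to 0.168 by limma, between 0.00174 and 0.168 across the alternatives) and with both libraries numbered 4 left out (0.110), and under 15 of 22 alternatives in all. Tagln, the smooth muscle transgelin, had 3881, 4259, 3751 and 1113 in 3D libraries, against 11208, 9158, 6352 and 2221 in 2D libraries. Replicate 4 was the lowest in both groups, and 2D replicate 4 lay below 3 of the 3D libraries. Its log2 fold change was −1.10 with all libraries (95% interval −2.38 to 0.18, adjusted p = 0.276 by limma) and −1.13 with both libraries numbered 4 left out (adjusted p = 0.0368 by limma, between 0.00766 and 0.484 across the alternatives). Gene models on the opposite strand cover 67.9% of the exonic length of Tagln, and reads of the strands cannot be told apart here.

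The actin genes comprise the cytoplasmic pair Actb and Actg1 and the muscle forms Acta1, Acta2 and Actg2. Actb, cytoplasmic beta-actin, had the highest level per kilobase of all members, 26783 ± 3203 in 3D libraries and 40926 ± 6804 in 2D libraries (SD, n = 4 each). Its normalized counts were 62737, 83088, 72637 and 68542 in 3D libraries and 130251, 108123, 114007 and 86179 in 2D libraries. The groups did not overlap, yet the log2 fold change of −0.60 (95% interval −1.01 to −0.20) did not pass in limma (adjusted p = 0.0809), while DESeq2 gave an adjusted p of 0.0109 (between 0.0109 and 0.207 across the alternatives). Actg1, cytoplasmic gamma-actin (chromosome 11, 120345690 to 120348542), was counted at 283, 349, 287 and 206 in 3D libraries, against 536, 554, 554 and 406 in 2D libraries. It fell with a log2 fold change of −0.88 (SE 0.21, adjusted p = 0.0424 by limma), a call lost with library size scaling (0.0660), with no filter on low values (0.0566) and without any one library other than 2D replicate 4 (adjusted p 0.0668 to 0.125 by limma, between 0.00235 and 0.125 across the alternatives). The level of Actg1 is uncertain, since the cytoplasmic actins are nearly identical in sequence and how reads matching several genes were counted is not given in the sources used here.

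Alpha smooth muscle actin (Acta2) was the second most abundant actin per kilobase. It had 10936, 14932, 15736 and 4015 normalized counts in 3D libraries and 41152, 28618, 23705 and 8244 in 2D libraries, so the spread within a group exceeded 3-fold on both substrates. The log2 fold change was −1.12 with all libraries (95% interval −2.38 to 0.14, adjusted p = 0.256 by limma) and −1.15 with both libraries numbered 4 left out (adjusted p = 0.0491 by limma, between 0.0130 and 0.452 across the alternatives). Skeletal alpha-actin (Acta1) was scarce, with 18.1, 46.3, 27.99 and 4.57 in 3D libraries and 183, 186, 140 and 15.9 in 2D libraries. Its log2 fold changes were −2.28 (adjusted p = 0.159 by limma) and, with both libraries numbered 4 left out, −2.51 (adjusted p = 0.0160 by limma, between 0.00622 and 0.284 across the alternatives). Actg2, the enteric smooth muscle actin, had 0.914 to 28.3 in 3D libraries and 5.54 to 18.5 in 2D libraries.

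**Figure D3:**
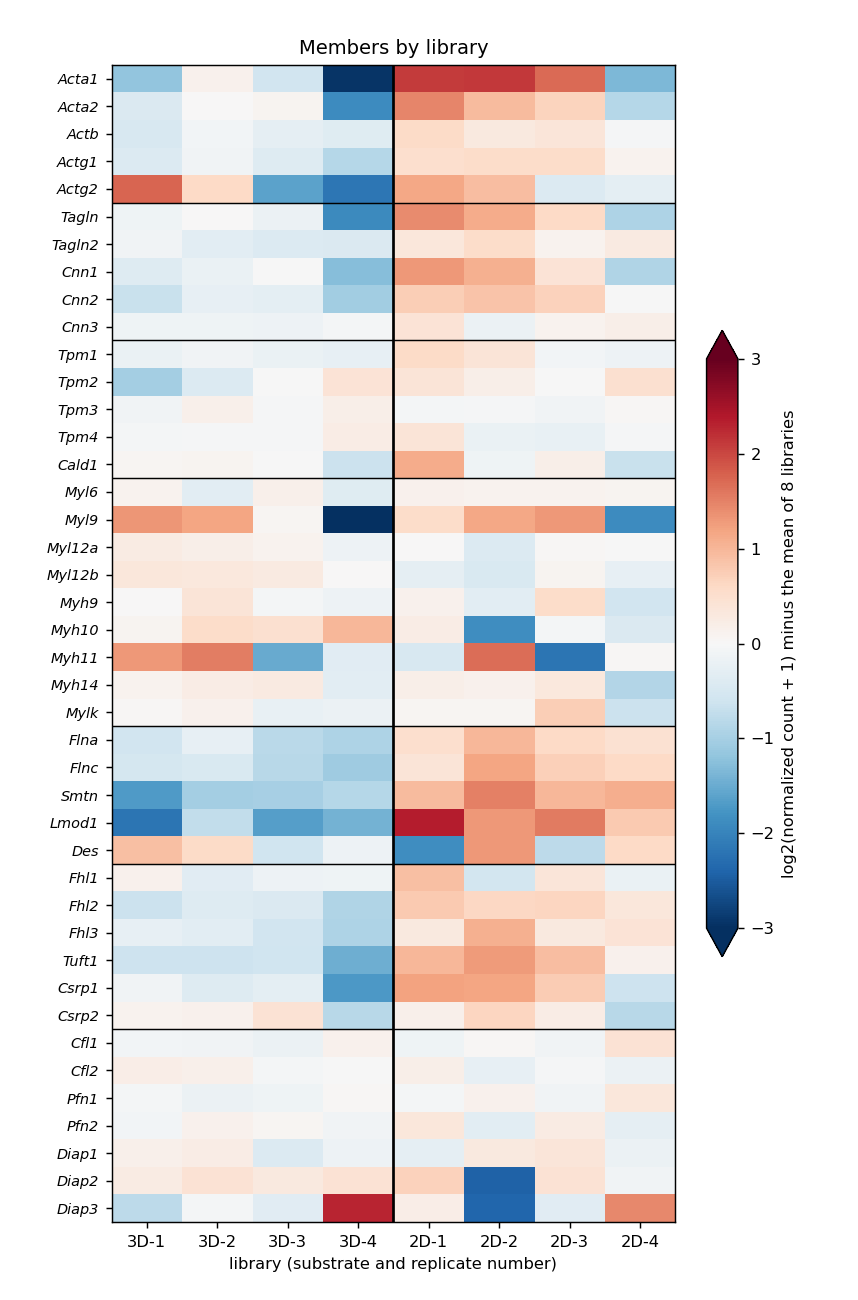
All 42 members (rows, grouped by role) in 3D libraries (left of the line) and 2D libraries (right), coloured by log2(normalized count + 1) minus the mean of the 8 libraries. Replicate 4 of both groups is blue for Acta1, Acta2, Tagln, Cnn1, Csrp1 and Myl9 and red for Diap3.

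In all, 7 members were at least 2-fold lower in replicate 4 than in the mean of the other 3 libraries of its group on both substrates: Acta1, Acta2, Cnn1, Csrp1, Csrp2, Myl9 and Tagln. Among all genes tested 3.82% were. For Acta2 the difference was −1.77 (log2) in 3D libraries and −1.88 in 2D libraries, and for Tagln −1.83 and −1.96. Diap3, a formin, went the other way by 2.67 and 2.28, as did 5.04% of all genes tested by at least 2-fold. Smtn (0.38 and −0.07) and the filamins (Flna −0.39 and −0.24, Flnc −0.46 and −0.16) did not show this size of difference. The smooth muscle marker list, whose 8 genes include 5 members, summed to 60.4 to 164 normalized counts in 3D libraries and 105 to 356 in 2D libraries, lowest in replicate 4 of each group. The member Cnn1 was its largest gene in every library. Lmod1 alone had groups that did not overlap, and it had to differ. Synpo2, outside the members, had 2.74 to 22.7 in 3D libraries and 2.45 to 7.79 in 2D libraries, so the list did not move as a set. The smooth muscle regulator Myocd was at 0 in 7 of 8 libraries and Pln at or below 1.19, and the part of smooth muscle cells in these results was not tested.

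Tropomyosins run along actin filaments and gate myosin's access, and caldesmon (Cald1) does so in smooth and non-muscle cells. Tpm1, the most abundant of these per kilobase, had 26460, 28350, 26446 and 25511 normalized counts in 3D libraries, against 45137, 39601, 28655 and 27421 in 2D libraries. The 3D libraries lay within a narrow band that the lowest 2D library fell inside and the other 2D libraries exceeded, with a log2 fold change of −0.37 (95% interval −0.80 to 0.06, adjusted p = 0.275 by limma). For Tpm3 and Tpm4 the intervals were −0.20 to 0.38 and −0.34 to 0.42. Tpm2 ranged from 733 to 1987 in 3D libraries and 1492 to 2085 in 2D libraries, and Cald1 from 2252 to 3715 and from 2205 to 7618. No tropomyosin or caldesmon call was made under any alternative.

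Myosin II genes encode heavy chains (Myh9, Myh10 and Myh14 outside muscle, Myh11 in smooth muscle), regulatory light chains (Myl9, Myl12a and Myl12b), the essential light chain Myl6 and the activating kinase Mylk. Myl12a was the most abundant per kilobase, with 18042, 17194, 16153 and 13673 normalized counts in 3D libraries and 15227, 11382, 15430 and 14927 in 2D libraries. The groups overlapped, and the 95% interval of its log2 fold change was −0.17 to 0.56. Its near-identical neighbour Myl12b had 3249 to 4106 in 3D libraries and 2353 to 3417 in 2D libraries, a log2 fold change of 0.45 (adjusted p = 0.120 by limma). Reads of the pair may have been split between them, and other gene models on the same strand overlap 13.8% of the exonic length of Myl12a and 26.7% of that of Myl12b. The non-muscle heavy chain Myh9 had 17262, 22553, 16448 and 15452 in 3D libraries, against 18823, 13822, 25261 and 11593 in 2D libraries. Its interval reached from −0.47 to 0.66, and the 2D libraries enclosed the 3D ones.

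Myh10, the second non-muscle heavy chain, had the highest log2 fold change of any member, 1.06 (95% interval 0.12 to 2.00), which did not pass (adjusted p = 0.165 by limma, between 0.106 and 0.351 across the alternatives). It had 570, 794, 757 and 1065 normalized counts in 3D libraries and 623, 148, 516 and 401 in 2D libraries, overlapping through 2D replicate 1. Myh14 had intervals of −0.46 to 0.73, Myl6 of −0.55 to 0.14 and Mylk of −0.78 to 0.56 on the log2 scale. The smooth muscle forms were scarce: Myl9 had 0 to 30.6 in 3D libraries and 2.45 to 30.1 in 2D libraries, and Myh11 1.87 to 22.7 and 0.791 to 25.1.

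Genes of actin turnover did not pass the test in any case, in limma or in any alternative. Cofilin 1 (Cfl1), which severs filaments and led this group per kilobase, had 22749, 22498, 21601 and 26718 normalized counts in 3D libraries, against 22080, 24671, 22573 and 32935 in 2D libraries. The groups overlapped and the log2 fold change was −0.11 (95% interval −0.50 to 0.27), with a gene model on the opposite strand over 16.5% of its exonic length. The intervals were −0.19 to 0.46 for Cfl2, −0.50 to 0.19 for the profilin Pfn1 and −0.40 to 0.41 for Pfn2. For these 4 genes a change of 2-fold lay outside the 95% interval. The formin Diap1 had an interval of −0.56 to 0.37, which left a 2-fold change outside as well. The formins Diap2 and Diap3 were less well measured, with intervals of −0.65 to 2.05 and −1.41 to 2.50. In 2D replicate 2, Diap2 was at 25.1 and Diap3 at 17.9, against 127 to 223 and 75.9 to 265 in the other 2D libraries. This was not particular to formins. The same library was the lowest 2D library for Myh10 (148) and for Marcks (392), Wasl (321), Myo10 (774) and Myo5c (56.1), described below. It was the highest for the filamins and Smtn, and why was not tested. With 2D replicate 2 left out, 7 members fell and 0 rose, against 350 and 267 of all genes tested.

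As a share of all reads, the 42 members together took 1.83% to 2.24% in 3D libraries and 2.70% to 3.46% in 2D libraries, and the filamin and smooth muscle structural genes took 0.479% to 0.670% in 3D libraries and 1.15% to 1.35% in 2D libraries. Flna alone averaged 84102 of the 365266 normalized counts summed over all members in 3D libraries, and 202790 of 626437 in 2D libraries. It was also most of the filamin and smooth muscle structural sum, which averaged 97888 and 251444. The myosin genes took 0.223% to 0.266% of reads in 3D libraries and 0.141% to 0.247% in 2D libraries. The 7 turnover genes took 0.227% to 0.296% of reads in 3D libraries and 0.204% to 0.310% in 2D libraries.

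Ratios between related members do not depend on the scaling between libraries. Of these ratios, 8 were compared by a two-sided exact permutation test over the 70 arrangements of 4 and 4 libraries, whose smallest possible p is 0.0286. The log2 ratio of Csrp2 to Csrp1 was −3.56, −3.25, −3.03 and −2.87 in 3D libraries and −4.82, −4.30, −4.31 and −3.99 in 2D libraries. It was higher in every 3D library than in any 2D library, by 1.18 (SE 0.23, exact p = 0.0286, adjusted over the 8 ratios 0.171). None of the 8 passed after adjustment. The ratio of Cnn2 to Cnn3 differed by −0.88 (SE 0.33), with 3D libraries at 0.48 to 1.34 and 2D libraries at 1.25 to 2.49. The ratio of Myh10 to Myh9 differed by 0.97 (SE 0.46) and that of Actg1 to Actb by −0.27 (SE 0.14). For these 3 ratios exact p was 0.0857 and the adjusted p 0.171, and for Acta2 to Actb, Cfl2 to Cfl1, Pfn2 to Pfn1 and Diap3 to Diap1 the adjusted p was 0.503 to 0.6.

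**Figure D4:**
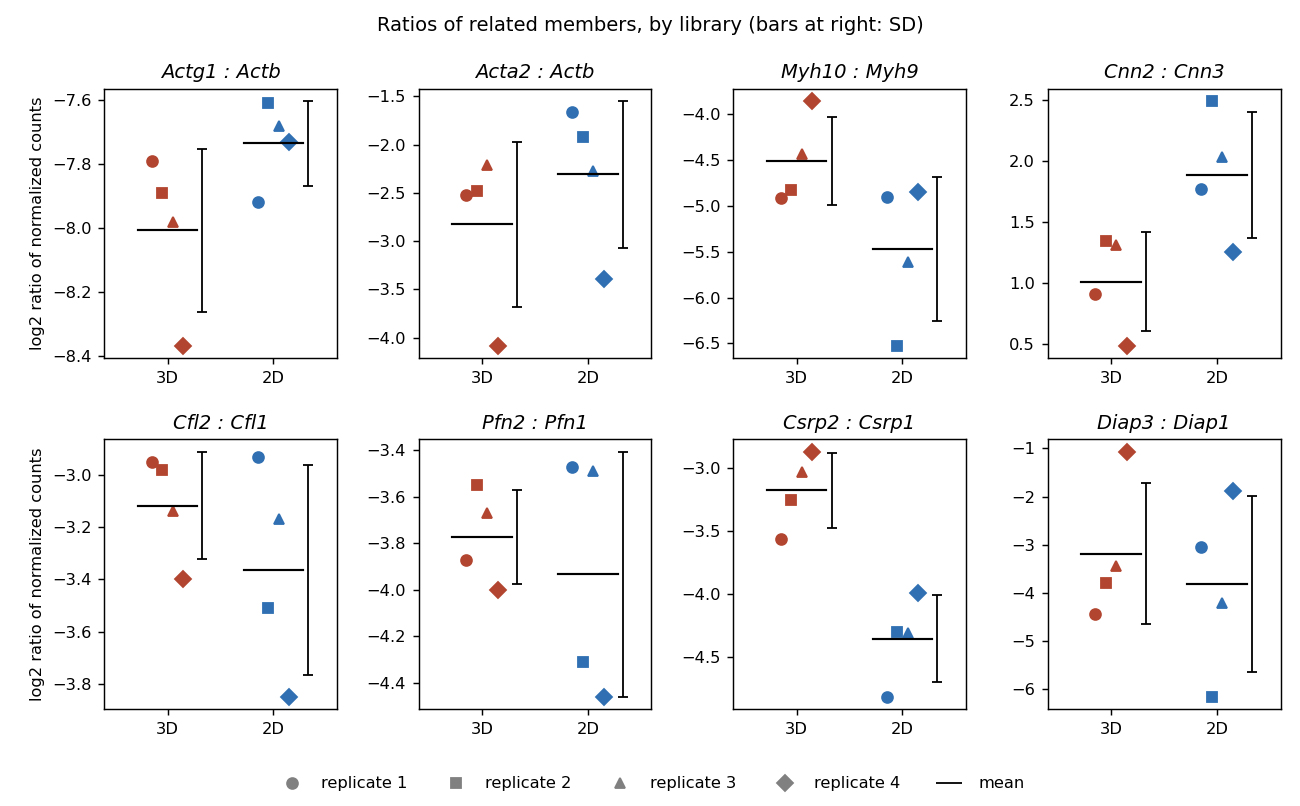
Log2 ratios of normalized counts (vertical axes) for 8 pairs of related members in 3D libraries (left in each panel) and 2D libraries (right), with symbols for the replicate number, a line at the mean and SD bars. The groups stand apart for Csrp2 to Csrp1 alone, at −3.56 to −2.87 in 3D libraries and −4.82 to −3.99 in 2D libraries.

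Among 115 other genes of the actin pathway, outside the 42, 110 were tested in the same limma fit. Of these 11 fell (10%, against 3.39% of all genes tested) and 4 rose (3.64%, against 2.33%), so the share that rose was near that of all genes. With library size scaling 8 fell and 5 rose. These lists too were chosen with earlier results of these data known, so their shares are no test of the lists. The 110 had a median log2 fold change of −0.03. Srf itself fell (log2 fold change −1.86, adjusted p = 0.00311 by limma), while its cofactors Mkl1 (MRTF-A, −0.53) and Mkl2 (MRTF-B, 0.55) did not pass (0.152 and 0.218). The formins Daam2 (−1.70) and Fmnl3 (−0.77) fell among 9 tested, and Fmnl2 had 0.68 without passing.

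The podocyte and dendritic spine protein Synpo fell with a log2 fold change of −2.05, to 1499 ± 333 normalized counts in 3D libraries, against 6280 ± 1656 in 2D libraries (SD, n = 4 each, adjusted p = 0.00335 by limma). Marcks, which crosslinks actin at the membrane, rose in the same list of 19 tested, at 3078 ± 178 in 3D libraries and 889 ± 371 in 2D libraries (log2 fold change 1.91, adjusted p = 0.0134 by limma), and Spnb2, a spectrin, had 0.93 without passing. Of 17 genes of the Arp2/3 complex and branched nucleation, 1 was called, the activator Wasl (N-WASP), which rose, with 1107 ± 99.8 in 3D libraries and 446 ± 129 in 2D libraries (log2 fold change 1.35, adjusted p = 0.0111 by limma). The subunits Arpc1b and Arpc2 had 0.61 and 0.44 without passing. Coronin Coro1c (−0.93) was the 1 faller of 19 tested genes of monomer binding, capping and severing, where Tmsb4x and Tmod1 had 0.82 and 0.90 without passing.

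Unconventional myosins moved both ways. Myo10, the motor of filopodia, rose to 4480 ± 1263 normalized counts in 3D libraries, against 1338 ± 499 in 2D libraries (SD, n = 4 each), a log2 fold change of 1.78 (adjusted p = 0.0153 by limma). Myo18a (−0.78) and Myo1c (−1.12) fell, at limma adjusted p of 0.0179 and 0.0241. Among the 13 tested, Myo5c (1.18) also rose and Myo7a (−1.45) also fell, both named after their values were seen. Over all these lists the number that fell dropped to 2 with 3D replicate 1, 2 or 3 left out, to 4 with 2D replicate 3 and to 5 with 3D replicate 4 left out. In those fits the number over all genes tested also dropped, to between 104 and 239, against 401 with all libraries. The number that rose was 2 with 3D replicate 2 left out, and 1 with 3D replicate 3 or both libraries numbered 4 left out.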

How the data were processed

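RNA sequencing was made from 8 libraries of MOE cells. The submitters' processing notes name HTSeq 0.6.1p1, DESeq2 and the mm10 build. No source used here gives the aligner, annotation or strand setting. What the authors deposited is, for each gene, a signal scaled per library: in every library 100% of values were whole multiples of 1 read (tolerance 0.001 reads), and the divisors matched recomputed median-of-ratios size factors within 3.4e-09. Genes with at least 10 normalized counts in at least 4 libraries were tested with limma 3.58.1 (R 4.3.3, trended and robust variance) on log2(normalized count + 1), with no covariates. Fold changes, 3D over 2D, are on this scale, which understates low genes. P-values were adjusted by Benjamini-Hochberg over all genes tested (threshold 0.05). edgeR 4.0.16 and DESeq2 1.42.0 ran on the recovered reads as alternatives. Precision is limited by 4 libraries a group and, for genes of a few reads, by counting.

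Positions and exon lengths are from GENCODE M21 (GRCm38, the mm10 build), with 22873 symbols matched, 1920 through an older symbol. All members are accounted for, with each library's value for members past the threshold and for the most abundant of each role per kilobase, and Acta1, Acta2, Tagln, Myh9 and Myh10 were added after their values were seen. From each pathway list up to 3 genes with the smallest adjusted p are named. The genes of 1 list are counted in the totals and not reported here by name. The members and lists were chosen with earlier results of these data known.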

Additional observations from a re-analysis of the deposited data

Results flagged for a closer look

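Values that lay far from the other 3 of their group were looked for in 84 groups of 4 libraries, where chance gives about 1 in 20, and 8 were found. Of these, 5 were in 3D replicate 4. There Tagln (1113 normalized counts), Cald1 (2252) and Tuft1 (322) were the lowest 3D values, and Tpm4 (9426) and Diap3 (474) the highest. In 2D replicate 4, Actg1 was lowest at 406. In 2D replicate 2, Myl12a was lowest at 11382 and Fhl3 highest at 1234.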

How the results depend on the processing

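Smtn, Flnc, Fhl2 and Tuft1 kept direction and call under every alternative. Lmod1 kept them too where it was tested, but it passed the filter through its 2D libraries alone and had to differ. The other 5 members that fell lost the call under at least 1 alternative, as given with each. No member's called value changed sign, while members that were not called changed sign 41 times. Members that fell numbered 5 to 10 without single libraries, and 9, 9 and 8 with TMM, with library size and with no filter on low values. The scaling with library size moved the median log2 fold change of all genes by 0.17. Other actin genes that fell numbered 2 to 11, and those that rose 1 to 4, without single libraries. The 8 ratios moved by less than 1 SD under each alternative run for them. All genes that fell numbered 104 to 370, and those that rose 44 to 267.

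The replicate numbers gave correlations of deviations of −0.17, 0.37, 0.25 and 0.81, so they were not used as pairs, and 5 of 8 libraries correlated best with their own number in the other group. With the replicate block 14 members fell (Acta1, Acta2, Tagln and Csrp1 besides the 10), 742 of all genes fell and 663 rose. edgeR with the block gave 643 and 718, with 13 members falling and 7 other actin genes rising. With GC trends removed 605 of all genes fell and 481 rose, and 9 members fell. With GC trends removed and the block 1077 of all genes fell and 995 rose. In that fit 15 members fell and 1 rose (Myl12b), and 17 other actin genes fell and 7 rose. DESeq2 gave 871 and 708, with 13 members falling and 7 other actin genes rising. edgeR without the block called 9 members, all lower, where 369 of all genes fell. With library size 318 of all genes fell and 498 rose, and with both libraries numbered 4 left out 171 rose, as did 1 other actin gene. The cause of these differences between fits was not tested. A 2-fold change lay inside the 95% intervals of 13 of the 30 members that were not called, among them Acta1, Acta2, Tagln, Csrp1, Myh10, Myl9 and Diap3. The fits without both libraries numbered 4, with edgeR and the block, and with GC trends removed and the block were chosen after seeing the data.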
